A study of Homo sapiens with 9 samples.

Results

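TP-472 at 10 µM was compared with TP-472 at 5 µM in A375 cells, across all genes, to find which mRNAs kept changing with dose, which had already reached their level at 5 µM and which moved back. All genes tested are described, and the libraries, taken by their labels, were 6 of the 9 libraries of the series, 3 at each dose, with the 3 DMSO libraries as the reference for what 5 µM had done. A375 is an established human melanoma cell line that carries an activating BRAF mutation, and all 3 groups were this line in serum-containing DMEM for 24 h, in DMSO vehicle, in 5 µM TP-472 or in 10 µM TP-472. The labels name 3 replicates per group and do not say whether they were cultured on separate days, and 1 cell line and 1 time point limit what the groups can model.

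TP-472 binds the bromodomains of BRD9 and BRD7 and keeps them off acetylated lysines; both are subunits of SWI/SNF chromatin remodelling complexes. Several of the programmes followed here have well known controls: ATF4 drives amino acid and stress genes after phosphorylation of the initiation factor eIF2, p53 drives cell cycle arrest and death genes, serum response factor drives immediate early genes, and the DREAM complex and the factors that replace it switch mitotic genes through a short promoter element. The extracellular matrix genes encode the collagens, laminins and glycoproteins around the cell and the integrins that hold it to them.

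Each library held between 42483061 and 51298108 rounded counts. Genes of ribosomal RNA took from 8.20% of the counts, in 10 µM replicate 1, to 19.9%, in 10 µM replicate 3. A trend with the length and GC content of transcripts took up 10.3% of the variance, between genes, of how far 10 µM replicate 1 departed from its group, 4.50% and 5.04% for the other replicates at 10 µM and at most 0.444% for a DMSO or 5 µM library. Calls lost without 10 µM replicate 1 are named with the genes they concern. SOX10, a defining factor of the melanocyte lineage, stood at 426, 404 and 419.7 CPM (the counts of a gene scaled to a common library size) in DMSO, at 413, 420.3 and 405 CPM at 5 µM and at 411, 399 and 363 CPM at 10 µM, while the pigment gene TYR was at 0 in all 9. Summed over the markers, keratinocyte genes held 49.4 to 97.7 CPM, fibroblast genes 3.18 to 7.37 CPM, endothelial genes 1.84 to 3.70 CPM and leukocyte genes 0.103 to 1.55 CPM per library, and the highest keratinocyte and leukocyte sums were those of 10 µM replicate 1. Most of the keratinocyte sum was KRT10, at 42.2 to 87.2 CPM. CD3E was at 0 throughout, and of all these markers PDGFRA and LUM, of the fibroblast list, were the members called between the doses, both lower at 10 µM. The part of other cells in the results was not tested. Of the targets, BRD9 was at 46.2, 41.4 and 37.3 CPM at 5 µM and 51.8, 42.5 and 41.9 CPM at 10 µM (log2 fold change 0.13, 95% interval -0.11 to 0.36) and BRD7 at 84.5, 84.2 and 82.2 CPM at 5 µM and 68.9, 86.5 and 75.5 CPM at 10 µM (-0.12, 95% interval -0.31 to 0.07), and neither passed the test. Exons of BRD7 overlap those of ADCY7 on the opposite strand.

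From 5 µM to 10 µM, 233 genes rose and 425 fell, or 1.42% and 2.59% of the 16417 genes tested. A gene was called where edgeR's quasi-likelihood test gave an adjusted p (Benjamini-Hochberg, over all genes tested) under 0.05 and the change reached 1.5-fold. These limits called 352 genes higher (2.14%) and 447 lower (2.72%) at 5 µM against DMSO, and 1407 higher (8.57%) and 1730 lower (10.5%) at 10 µM against DMSO. Among the genes called from 5 µM to 10 µM, the median change was 1.79-fold upward and 1.74-fold downward, and 88 and 119 changed at least 2-fold. In every called gene the 3 libraries at 10 µM lay all above or all below the 3 at 5 µM, as they did in 4650 genes (28.3%) in all. Without 10 µM replicate 1, 320 genes were higher (1.91%) and 548 lower (3.27%) among 16745 genes tested, and 170 of the 233 and 322 of the 425 kept their call. Removing each library's trend with length and GC content changed the split of the calls from 233 higher and 425 lower to 299 higher and 352 lower. The genes that fell had a median transcript length of 4672 bases and those that rose 2396 bases, against 3485 bases over all genes tested, and 4283 and 2581 bases among the genes that kept their call without 10 µM replicate 1, and the part of length in these counts was not tested further. A fit of the 6 libraries alone called 101 genes higher and 165 lower, and DESeq2 on all 9 called 418 higher. Leaving out any 5 µM replicate left 118 to 121 genes higher and 258 to 272 lower, and leaving out DMSO replicate 2 left 155 genes higher.

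**Figure D1:**
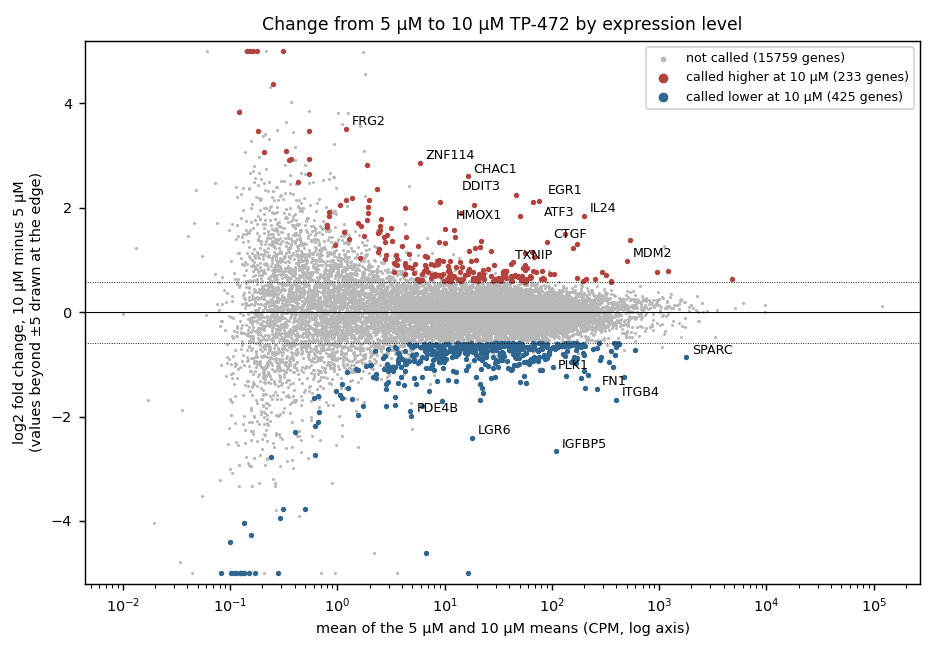
Log2 fold change from 5 µM to 10 µM TP-472 for each of the 16417 genes tested (vertical axis) against the mean CPM of both doses (horizontal axis, log scale). Red and blue points are the 233 genes called higher and the 425 called lower, grey points are not called, dotted lines mark a 1.5-fold change, and values beyond 5 either way are drawn at the edge. IGFBP5 and LGR6 lie lowest among the labelled genes, and FRG2, ZNF114 and CHAC1 highest.

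Most of the genes that changed between the doses had not passed the limits at 5 µM. This held for 157 of the 233 that rose (67.4%) and 276 of the 425 that fell (64.9%). The genes called between the doses had still passed at 5 µM more often than all genes tested, of which 4.87% had. A gene that had not passed can have changed at 5 µM under the fold limit, as CTGF had (log2 fold change 0.54, adjusted p = 0.00101 in edgeR's test). Because all groups share 1 estimate of the spread, leaving out 10 µM replicate 1 also changed the first step, to 575 genes higher and 666 lower at 5 µM against DMSO, and then 64.7% and 60.8% of the genes called between the doses had not passed at 5 µM. Another 67 genes rose at both steps and 142 fell at both, which is 19.0% and 31.8% of the genes called in that direction at 5 µM and 28.8% and 33.4% of those called from 5 µM to 10 µM. The mean at 5 µM lay between the DMSO and 10 µM means for 173 of the 233 genes that rose and 367 of the 425 that fell. For 60 and 58 it lay on the other side of DMSO. The same was not counted over all genes tested, and nothing is read from these counts. The steps share the 5 µM libraries, so a deviation of those libraries enters both with opposite signs, and the values are given side by side without a test of their relation.

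The largest fall with a clear identity was that of IGFBP5, a secreted binding protein of insulin-like growth factors, at chromosome 2 from 216672105 to 216695525 (GRCh38, GENCODE 29 annotation, as for all gene positions given here). IGFBP5 stood at 360.3, 370.0 and 360.1 CPM in DMSO, 182, 193 and 197 CPM at 5 µM and 20.1, 35.2 and 34.7 CPM at 10 µM. The largest falls and rises were chosen among genes without overlap between the doses. The DMSO libraries of IGFBP5 also lay above those at 5 µM. IGFBP5 fell 6.35-fold from 5 µM to 10 µM (log2 fold change -2.67, standard error 0.18, adjusted p = 5.63e-05) after a log2 fold change of -0.93 at 5 µM. LGR6, a receptor for R-spondins that enhances Wnt signalling, on chromosome 1 from 202193901 to 202319781, was at 29.4, 28.9 and 32.6 CPM at 5 µM and 7.21, 4.17 and 5.83 CPM at 10 µM, which is -2.40 on the log2 scale (standard error 0.17, adjusted p = 5.99e-05). At 5 µM LGR6 had a log2 fold change of -0.35 that did not pass the test, and it was called at the upper step. The phosphodiesterase gene PDE4B, at 8.35, 7.19 and 7.68 CPM at 5 µM and 1.51, 2.36 and 2.0 CPM at 10 µM, fell by 1.98 on the log2 scale (standard error 0.18). GJA5, which encodes a gap junction connexin, and SORCS1, a sorting receptor gene, fell at both steps, from 14.6, 13.8 and 14.8 to 4.07, 4.65 and 4.63 CPM and from 4.86, 5.6 and 5.46 to 1.76, 1.31 and 1.55 CPM between the doses. ISLR, LDB2, the retinal transport gene RLBP1, the dynein gene DNAH9 and the noncoding LINC01239 completed the largest falls, with log2 fold changes of -1.89, -1.80, -1.97, -1.79 and -1.79. SMN2 and the readthrough gene RPL17-C18orf32 met the same rule, but their reads cannot be separated with certainty from those of a near-identical or overlapping gene. SMN2 had 2873, 358 and 1432 counts at 5 µM and 0 in each library at 10 µM, while its copy SMN1 had 1798, 4770 and 3543 counts at 5 µM and 5919, 6206 and 5565 at 10 µM.

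Among the largest rises, several genes were close to silent in DMSO. ZNF114, a zinc finger gene on chromosome 19 from 48270102 to 48287608, was at 0.161, 0.206 and 0.307 CPM in DMSO, 1.12, 1.99 and 1.19 CPM at 5 µM and 11.3, 8.86 and 11.2 CPM at 10 µM, which is 2.86 on the log2 scale between the doses (standard error 0.27, adjusted p = 0.000288). The 5 µM libraries of ZNF114 lay above those in DMSO, and separation of the doses was part of the rule. FRG2, a gene of the subtelomeric repeat region of chromosome 4, had 0.307, 0.252 and 0.0205 CPM at 5 µM and 2.23, 1.71 and 2.75 CPM at 10 µM (3.52, standard error 0.69). FRG2 is close to other copies of itself, and its counts are uncertain for that reason. PRR9 went from 0.285, 0.755 and 0.37 CPM at 5 µM to 3.31, 2.92 and 3.77 CPM at 10 µM. The chemokine gene CCL3 went from 0.657, 0.60 and 1.05 to 5.0, 3.04 and 3.85 CPM, and the betaine transporter gene SLC6A12 from 0.526, 0.368 and 0.411 to 2.66, 1.71 and 1.47 CPM. All 3 genes stood at a low level, and the rule that named them required the libraries of the doses not to overlap. Most of the exonic sequence of CCL3 overlaps a gene on the opposite strand, and the sources used here do not say if reads were assigned by strand. The readthrough RAD51L3-RFFL shares nearly all of its exons with its constituent genes and is uncertain.

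Target genes of ATF4 were called mainly at the upper step. Of 44 tested, 16 rose from 5 µM to 10 µM and 0 fell, where 4 had been called higher and 3 lower at 5 µM, and 12 of the 16 had not passed at 5 µM. Over all genes tested, 1.42% rose and 2.59% fell between the doses, after 2.14% and 2.72% at 5 µM. The median log2 fold change of the list was -0.02 at 5 µM against DMSO and 0.27 from 5 µM to 10 µM, against 0.01 and 0.00 over all genes tested. The 16 were ATF4 itself, ATF3, CHAC1, DDIT3, PPP1R15A, NUPR1, ADM2, ASNS, STC2, GDF15, SESN2, CEBPB, CEBPG, HERPUD1, SLC1A4 and SLC3A2. CHAC1, a glutathione-degrading enzyme gene on chromosome 15 from 40952962 to 40956519, was at 3.46, 2.45 and 3.59 CPM in DMSO, 3.81, 4.98 and 5.28 CPM at 5 µM and 36.6, 25.2 and 23.8 CPM at 10 µM. The 10 µM libraries of CHAC1 stood far above the rest, replicate 1 highest, and the rise from 5 µM was 6.08-fold (log2 fold change 2.60, standard error 0.21, adjusted p = 0.000128), or 2.38 on the log2 scale without 10 µM replicate 1. DDIT3, the CHOP transcription factor gene on chromosome 12 from 57516588 to 57521737, had 17, 15.6 and 15.8 CPM at 5 µM and 102, 60.2 and 66.1 CPM at 10 µM, or 2.24 on the log2 scale (standard error 0.18, adjusted p = 0.000128). DDIT3 overlaps MARS and MBD6 on the opposite strand. PPP1R15A, the GADD34 subunit that directs the phosphatase back to eIF2, was at 59.4, 58.3 and 56.1 CPM in DMSO and 68.9, 71.3 and 68.8 CPM at 5 µM, and then at 217, 178 and 193 CPM at 10 µM, a 2.81-fold rise (log2 fold change 1.49, standard error 0.08, adjusted p = 1.84e-05). ATF3, a stress-induced transcription factor gene, rose at both steps, by 2.88 and then 2.12 on the log2 scale, and was at 116, 101 and 108 CPM at 10 µM. With 10 µM replicate 1 left out, 12 members were called, and 11 of the 16 kept their call, all except ATF4, CEBPB, CEBPG, HERPUD1 and SLC3A2. The aminoacyl-tRNA synthetases, many of which ATF4 also controls, gave no call among 20 tested in edgeR's test, DESeq2 or limma-voom, with 7 higher and 1 lower at an unadjusted p under 0.05 and 0.47 for the seryl enzyme gene SARS, the member with the smallest p.

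The element that ATF4 binds with C/EBP partners, TGATGNAAN on either strand, was searched in the 250 bases upstream of the RefSeq start of each gene. It was found in 867 of 27305 promoters (3.18%), in 195 of the 12576 tested genes with a promoter in the table (1.55%) and in 4 of the 36 ATF4 target genes with a promoter in the table, namely ATF3, CHAC1, ASNS and HERPUD1. All 4 were among the 16 that rose from 5 µM to 10 µM, of which 15 had a promoter in the table. Of the 21 members with a promoter that were not called, 0 had a match. HERPUD1 lost its call without 10 µM replicate 1. Among all genes with a promoter, 9 of 176 called higher between the doses (5.11%) and 7 of 325 called lower (2.15%) had a match. The relation of the element to the change was not tested. These 4 matches are shown because they mark the genes of the list in which the element lies close to the start; each stretch is 30 bases of GRCh38.p14 on the strand of the gene, with the match in capitals.
ATF3, chr1:212565206-212565235, plus strand: aaggtcaggaTGATGGAAGgctgtcatatt
CHAC1, chr15:40953251-40953280, plus strand: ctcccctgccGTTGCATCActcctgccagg
ASNS, chr7:97872457-97872486, minus strand: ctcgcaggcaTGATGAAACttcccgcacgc
HERPUD1, chr16:56931955-56931984, plus strand: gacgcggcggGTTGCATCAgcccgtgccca
The matches began 191, 210, 68 and 177 bases upstream of the start. A match is a description of the letters, and the lack of one in the other members with a promoter says only that these letters are not in that window.

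Immediate early genes, which cells switch on within minutes of a growth or stress signal, were called higher in part at each step. Of 31 tested, 7 had risen at 5 µM and all 7 rose again, and a further 7 that had not been called at 5 µM rose at the upper step, so that 14 were called higher from 5 µM to 10 µM and 12 without 10 µM replicate 1, which left DUSP1 and MAFF under the limits. Among all genes tested, 2.14% rose at 5 µM, and between the doses 1.42% rose and 2.59% fell. The list's median was 0.29 at 5 µM and 0.62 from 5 µM to 10 µM on the log2 scale. EGR1, a zinc finger factor gene on chromosome 5 from 138465490 to 138469315, was at 6.14, 7.76 and 5.91 CPM in DMSO, 29.5, 29 and 25.7 CPM at 5 µM and 121, 126 and 120.2 CPM at 10 µM. EGR1 rose by 2.09 on the log2 scale at the first step and 2.12 at the second (standard error of the latter 0.11, adjusted p = 1.44e-05), and its 5 µM libraries lay above those in DMSO. ARC, FOS, FOSB, JUN, DUSP1, KLF2, MAFF, NR4A1, NR4A3, PLK3, ZFP36, ATF3 and CYR61 were the others that rose. CYR61 and CTGF encode matricellular proteins that YAP and TEAD factors induce. CTGF, on chromosome 6 from 131948176 to 131951373, was at 35.7, 34.9 and 35.4 CPM in DMSO, 52.9, 48.9 and 52.1 CPM at 5 µM and 129, 128 and 134 CPM at 10 µM, or 1.34 on the log2 scale between the doses (standard error 0.07, adjusted p = 1.44e-05). CYR61 went from 101, 90.4 and 92.6 to 238, 218 and 206 CPM (1.22, standard error 0.08). Of 26 tested YAP and TEAD targets, these and ANKRD1 and GADD45A rose while IGFBP3 and WWTR1 fell, WWTR1 not without 10 µM replicate 1, and the median of the list was 0.05. Of 21 genes of the TGF-beta response, those that rose included CTGF and ID2, and TGFBI and TGFBR2 fell. Among 21 ERK output genes, EGR1, DUSP5 and IER3 rose and none of the others was called (DUSP5, log2 fold change 0.85, standard error 0.09); for IER3 the change was 0.64 and 0.42 without 10 µM replicate 1, under the limit.

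Secreted and oxidative stress genes rose in part. The shares over all genes tested were 1.42% higher and 2.59% lower between the doses, and 2.14% and 2.72% at 5 µM. IL24, a cytokine gene, was at 16, 16.3 and 13.8 CPM in DMSO, 85, 86.9 and 87.7 CPM at 5 µM and 366, 288 and 278 CPM at 10 µM, or 1.84 on the log2 scale between the doses (standard error 0.11, adjusted p = 3.3e-05). IL6 was not called at 5 µM, with 2.17, 2.08 and 2.27 CPM in DMSO and 1.84, 1.82 and 1.46 CPM at 5 µM, and was at 9.11, 6.02 and 5.22 CPM at 10 µM (1.99, standard error 0.24, adjusted p = 0.00102). Of 33 tested NF-kB targets and chemokines, these 2 rose with NFKBIB and NFKBIE, and TNFAIP2 fell (log2 fold change -0.70), after 6 had fallen and 2 had risen at 5 µM. The calls of NFKBIB and NFKBIE were lost without 10 µM replicate 1. HMOX1, the haem oxygenase gene that NRF2 induces, was at 7.95, 7.82 and 7.59 CPM in DMSO, 19.9, 25 and 21.6 CPM at 5 µM and 96.7, 76.5 and 65.9 CPM at 10 µM (1.84, standard error 0.14, adjusted p = 9.75e-05). Of 30 NRF2 targets, OSGIN1 and the ferritin genes FTH1 and FTL also rose, and ABCC3, an export pump gene, fell from 54.5, 58.6 and 59.3 to 26.1, 25.4 and 29 CPM (-1.10, standard error 0.08). The ferritin calls were lost without 10 µM replicate 1, in which FTL stood at 1587 CPM against 1017 and 1029 CPM in the others.

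**Figure D2:**
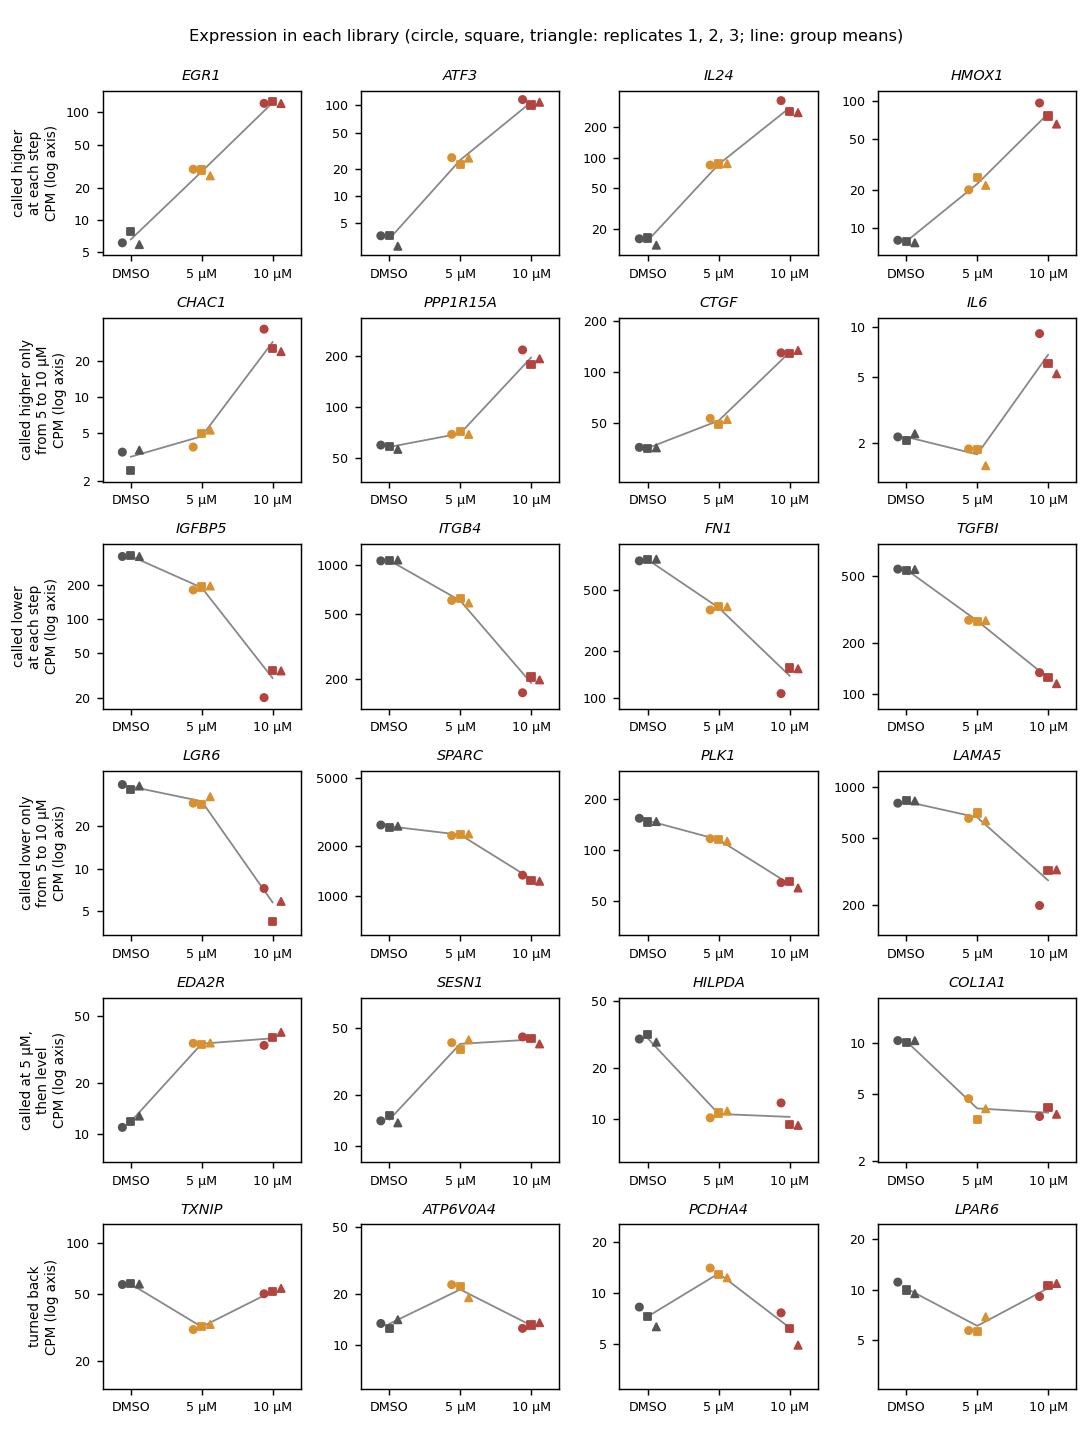
CPM of 24 genes (log axes) in the 9 libraries, by group along the horizontal axis, with a line through the group means. Each row holds 4 genes of 1 pattern, from genes called higher at each step (EGR1 from 5.91 to 126 CPM) to genes that turned back (TXNIP, lowest at 5 µM).

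Target genes of p53 were called mainly at the first step. Of 43 tested, 32 rose at 5 µM against DMSO, and 7 of these rose again from 5 µM to 10 µM. For 15 of the 32 the 95% interval of the log2 fold change between the doses lay within 1.5-fold either way (-0.58 to 0.58), here called levelled, and the other 10 were neither. Of all genes called higher at 5 µM, 31.0% had levelled, and 47.7% of all genes tested had an interval within these bounds. The median of the list was 1.02 at 5 µM and 0.26 from 5 µM to 10 µM. Between the doses 37 of the 43 had a log2 fold change above 0. At an unadjusted p under 0.05 in edgeR's test, 18 were higher and 1 lower, so a smaller rise went on in part of the list. Of all genes tested, 2.14% were called higher at 5 µM and 1.42% between the doses. The 7 that rose again were MDM2, GADD45A, GDF15, PLK3, SESN2, BBC3 and TP53I3, of which TP53I3 lost its second call without 10 µM replicate 1. GDF15 and SESN2 are also on the list of ATF4 targets, PLK3 on that of immediate early genes and GADD45A on that of YAP and TEAD targets. MDM2, the ubiquitin ligase gene that restrains p53, on chromosome 12 from 68808176 to 68850686, was at 100.1, 101 and 106 CPM in DMSO, 342, 332 and 342 CPM at 5 µM and 600.0, 682 and 726 CPM at 10 µM (log2 fold change 0.98, standard error 0.08, adjusted p = 0.000115). GADD45A, a growth arrest gene on chromosome 1 from 67685061 to 67688338, went from 100.3, 104 and 93.9 to 284, 219 and 238 CPM (1.31, standard error 0.11, adjusted p = 0.000115). Its relative GADD45B, at 12.6, 13.1 and 10.7 CPM at 5 µM and 36, 30.05 and 27.2 CPM at 10 µM, rose at the upper step (1.36, standard error 0.12). By contrast SESN1, a sestrin gene on chromosome 6 from 108986437 to 109094819, was at 14.1, 15.1 and 13.7 CPM in DMSO, 40.8, 37.2 and 42.4 CPM at 5 µM and 44.1, 43.4 and 40.1 CPM at 10 µM. After a rise of 1.49 on the log2 scale, SESN1 changed by 0.08 between the doses, with a 95% interval of -0.10 to 0.27. EDA2R, a death receptor gene on chromosome X from 66595637 to 66639298, was at 34.5, 33.9 and 34.7 CPM at 5 µM and 33.6, 37.2 and 40.1 CPM at 10 µM (0.11, 95% interval -0.10 to 0.31). Between the doses 4 members of the list were called without 5 µM replicate 3, and without 10 µM replicate 1 there were again 7 called, with 18 of 32 levelled. Of 35 BCL2 family and caspase genes, BBC3, the PUMA gene, was the only one called, at 24.3, 31.1 and 24 CPM at 5 µM and 50.5, 41.2 and 38.4 CPM at 10 µM (0.71, standard error 0.13).

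A share of the extracellular matrix genes fell at each step. From 5 µM to 10 µM, 9 of 32 tested collagen genes, 6 of 24 integrin genes, 2 of 11 laminin genes and 11 of 39 genes of matrix glycoproteins and proteoglycans fell, where 2.59% of all genes did. At 5 µM the counts had been 10, 5, 1 and 11, where 2.72% of all genes fell. In the other direction the collagen genes COL5A3 and COL17A1 and the integrin gene ITGB7 had risen at 5 µM, and SPP1, the osteopontin gene on the list of matrix glycoproteins, rose from 5 µM to 10 µM. The medians between the doses were -0.57, -0.28, -0.35 and -0.54 on the log2 scale. Without 10 µM replicate 1 they were -0.38, -0.26, -0.10 and -0.51, so that of the laminin genes rested largely on this library. Of the 10 collagen genes lower at 5 µM, 8 fell again, namely COL4A1, COL4A2, COL5A2, COL6A1, COL6A2, COL8A1, COL9A3 and COL13A1, while COL1A1 had levelled. COL4A2, a basement membrane collagen gene, was at 939, 946 and 949 CPM in DMSO, 489.6, 522 and 507 CPM at 5 µM and 209.6, 268 and 254 CPM at 10 µM (log2 fold change -1.05, standard error 0.09, adjusted p = 0.000159). COL13A1, a transmembrane collagen gene, went from 60.3, 57.9 and 53.4 to 28, 26.3 and 25.6 CPM (-1.10, standard error 0.08). COL6A1 was at 153, 158 and 151 CPM at 5 µM and 95.4, 103 and 106 CPM at 10 µM (-0.60, and -0.56 without 10 µM replicate 1, under the limit), and COL5A2 lost its call without that library too. With the trend of length and GC content removed, 5 collagen genes were called, and the median length of the collagen transcripts was 6386 bases against 3485 over all genes. The fibroblast markers summed to 3.18 to 4.73 CPM at 10 µM, against 6.27 to 7.37 CPM at 5 µM and 6.20 to 7.33 CPM in DMSO.

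FN1, which encodes fibronectin and lies on chromosome 2 from 215360440 to 215436172, was at 769.7, 788 and 789 CPM in DMSO, 370.3, 390.3 and 388 CPM at 5 µM and 106, 156 and 154 CPM at 10 µM, with replicate 1 lowest at 10 µM. The second step of FN1, -1.46 on the log2 scale (standard error 0.13, adjusted p = 0.000186), came after a first of -1.03. TGFBI, a matrix adaptor protein gene that TGF-beta induces, went from 274, 269 and 273 to 134, 125 and 116 CPM (-1.12, standard error 0.07, adjusted p = 3.77e-05). SPARC, a collagen-binding glycoprotein gene, was not called at 5 µM (-0.17) and then fell from 2289, 2319 and 2339.6 to 1335, 1248 and 1228 CPM (-0.87, standard error 0.06, adjusted p = 4.45e-05). ITGB4, the integrin beta subunit of hemidesmosomes, had the largest fall of the integrin genes called, from 609.9, 625 and 588 to 165, 206 and 198 CPM (-1.68, standard error 0.09). ITGA1, ITGA6, ITGA11 and ITGB5 had not passed the limits at 5 µM and were called lower at the upper step, while ITGB7 had risen at 5 µM. Leaving out any 5 µM replicate left 3 integrin genes called. LAMA5, a laminin chain gene, was at 653, 703 and 633 CPM at 5 µM and at 199, 320.3 and 324 CPM at 10 µM (-1.24, standard error 0.16, adjusted p = 0.00151), and LAMB1 went from 729, 761 and 728 to 338, 494 and 504 CPM (-0.73, and -0.57 without 10 µM replicate 1, under the limit). The proteases did not move one way. MMP2, a gelatinase gene, and LOXL4, a collagen crosslinking enzyme gene, fell by 0.83 and 0.71 on the log2 scale, and MMP1, the interstitial collagenase gene, rose from 14.8, 17.7 and 17.3 to 37.7, 34.2 and 40.3 CPM (1.17, standard error 0.11, adjusted p = 0.00022) as did MMP3. Of the 45 genes of matrix proteases and crosslinking enzymes, 3 rose and 7 fell, of which LOXL2 lost its call without 10 µM replicate 1.

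**Figure D3:**
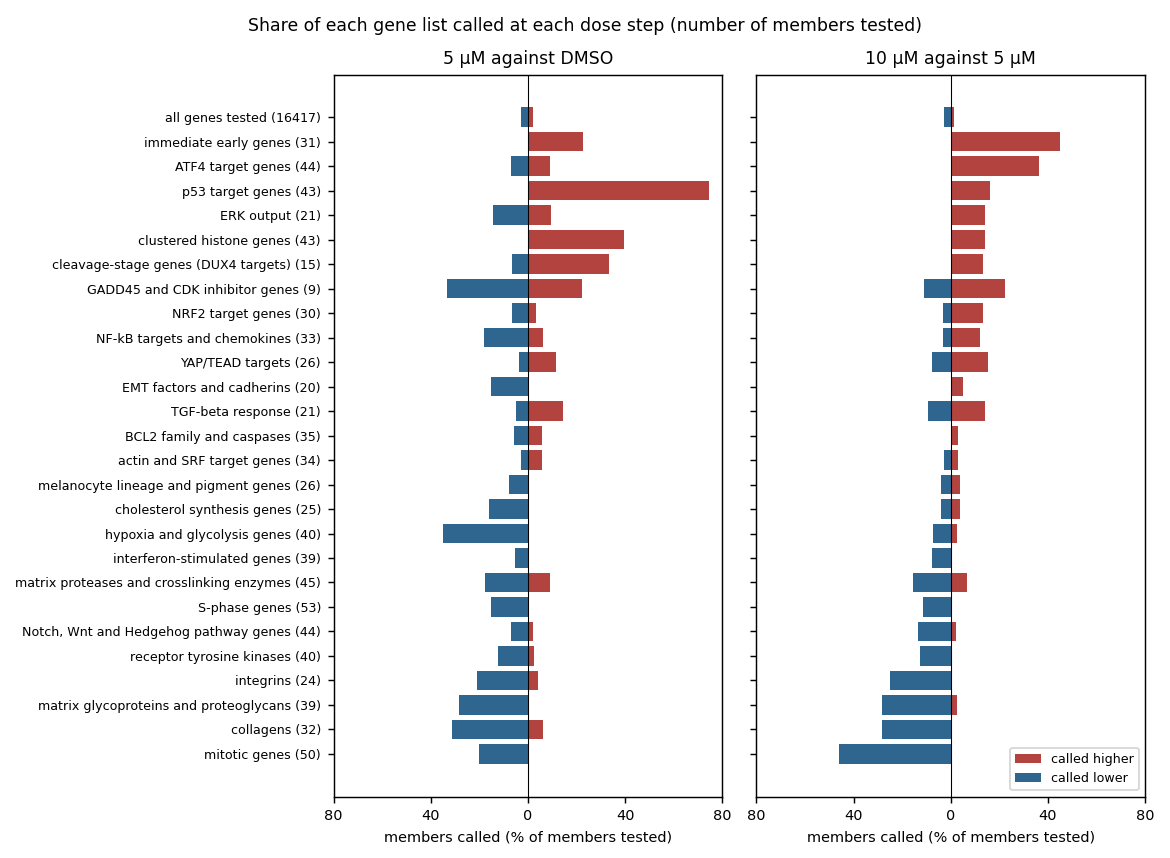
Percent of the tested members of each gene list (number in brackets) called higher, to the right, or lower, to the left, at 5 µM against DMSO and at 10 µM against 5 µM. Cell type markers and lists with few members or calls are not drawn. Of the bars drawn, at the first step the longest bar is that of the p53 target genes (32 of 43 higher), and at the second those of the mitotic genes (23 of 50 lower) and the immediate early genes (14 of 31 higher).

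More mitotic genes passed the limits at the second step than at the first. Of 50 tested, 10 were called lower at 5 µM and 23 from 5 µM to 10 µM, 17 of which had not passed at 5 µM. At 10 µM against DMSO 47 were called lower. Over all genes tested, 2.72% were lower at 5 µM, 2.59% between the doses and 10.5% at 10 µM against DMSO. The median was -0.47 at the first step and -0.56 at the second. All 50 members had a log2 fold change under 0 at 5 µM, and 49 of the 50 between the doses. KIF20A, a kinesin gene of cytokinesis, was at 92.8, 101 and 101 CPM in DMSO, 74.1, 76.6 and 74.9 CPM at 5 µM and 38.5, 40.5 and 36.7 CPM at 10 µM (log2 fold change -0.96, standard error 0.07, adjusted p = 8.88e-05). PLK1, the mitotic kinase gene on chromosome 16 from 23677656 to 23690367, went from 117, 116 and 113 to 64.2, 65 and 59.7 CPM (-0.87, standard error 0.07, adjusted p = 9.75e-05), and the centrosomal kinase gene NEK2 from 33.9, 31 and 29.4 to 18.2, 16.1 and 17.5 CPM (-0.86, standard error 0.09). In a bulk culture, fewer cells in mitosis and less mRNA per cell cannot be told apart. The fit of the 6 libraries alone called 10 mitotic genes. There were 22 without 10 µM replicate 1, where BUB1B, CENPE, DLGAP5, KIF18A and TTK lost their call, and without 5 µM replicate 1, 2 or 3 there were 15, 15 and 14. Of the S-phase genes, 8 of 53 had fallen at 5 µM and 6 of 53 fell between the doses (UHRF1, CHAF1B, E2F2, MCM10, CCNE2 and POLE2), with 34 of 53 within 1.5-fold by the 95% interval, where 47.7% of all genes were, and their median was -0.29 at both steps. Without 5 µM replicate 2, 2 S-phase genes were called, and UHRF1, MCM10 and CCNE2 lost their call without 10 µM replicate 1. CHAF1B, a chromatin assembly gene, went from 11.1, 10.9 and 9.89 to 6.96, 6.5 and 6.6 CPM (-0.67, standard error 0.10), and E2F2 from 6.31, 6.2 and 4.93 to 1.94, 3.4 and 2.61 CPM (-1.13, standard error 0.21).

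The cell cycle genes homology region, TTTGAA on either strand, is the promoter element through which mitotic genes are repressed outside their phase. It was found in the 250 upstream bases of 3704 of 27305 promoters (13.6%) and of 22 of the 43 mitotic genes in the table (51.2%). Among these 43, it was found in 12 of the 22 that fell from 5 µM to 10 µM (54.5%) and 10 of the 21 that were not called (47.6%). It was found in 1123 of the 12576 tested genes with a promoter in the table (8.93%). The matches nearest the start of 6 genes that fell are shown, 30 bases each on the strand of the gene, to show where they lie.
PLK1, chr16:23678848-23678877, plus strand: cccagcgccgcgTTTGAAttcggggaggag
MKI67, chr10:128126435-128126464, minus strand: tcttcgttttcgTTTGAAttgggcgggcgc
HMMR, chr5:163460598-163460627, plus strand: gggagatttgaaTTTGAAaccggtagggag
PRC1, chr15:90994538-90994567, minus strand: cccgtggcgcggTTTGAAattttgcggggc
ESPL1, chr12:53268256-53268285, plus strand: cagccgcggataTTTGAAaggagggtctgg
BUB1B, chr15:40161034-40161063, plus strand: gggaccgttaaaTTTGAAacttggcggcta
The windows follow RefSeq starts, which can differ from the GENCODE gene starts given elsewhere: those of CHAC1 and PLK1 lie downstream of the GENCODE start, so their windows are inside the GENCODE gene. Those of ATF3 and HERPUD1 lie downstream too, and their windows are partly inside the GENCODE gene. The matches of the 6 genes shown here began 29, 29, 22, 20, 31 and 23 bases upstream of the start.

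Clustered histone genes had risen at 5 µM, 17 of 43 tested, and 6 of the 17 rose again, with medians of 1.23 and 0.69. The 6 were HIST1H1C, HIST1H2BG, HIST2H2AA3, HIST2H2AA4, HIST2H4A and HIST2H4B, and the last 4 are 2 pairs of near-identical copies whose counts cannot be separated. HIST1H1C, a linker histone gene, was at 16.1, 15.5 and 14.7 CPM in DMSO, 43.7, 38.4 and 38.8 CPM at 5 µM and 119, 72 and 78.6 CPM at 10 µM (log2 fold change 1.15, standard error 0.17, adjusted p = 0.00278). DESeq2 called 12 histone genes and the fit of the 6 libraries alone 1. Without 10 µM replicate 1 the count was 11, although HIST2H2AA3 and HIST2H2AA4 lost their call, and without 5 µM replicate 1 or 3 it was 3. Most histone mRNAs end without a poly(A) tail, the sources describe both oligo-dT selection and depletion of ribosomal RNA, and the part of library preparation was not tested. Of 15 tested genes of the cleavage-stage embryo that DUX4 switches on, 5 had risen and SLC2A3 had fallen at 5 µM, and ZSCAN4 and PRAMEF12 rose again. ZSCAN4 was at 0.141, 0.0617 and 0.0946 CPM in DMSO, 0.942, 1.03 and 0.226 CPM at 5 µM and 4.73, 2.71 and 2.26 CPM at 10 µM (2.14, standard error 0.54, adjusted p = 0.038). The list's median was 1.38 at 5 µM and 1.32 between the doses, and 0.88 without 10 µM replicate 1. Of the 27 members with counts deposited, these 15 passed the expression filter. Over all genes tested, 2.14% rose at 5 µM and 1.42% between the doses. The filter can keep a gene for its level in treated libraries alone, so nothing is read from the numbers called or the medians of this list. The same limit holds for the histone list, where 43 of 73 genes passed.

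**Figure D4:**
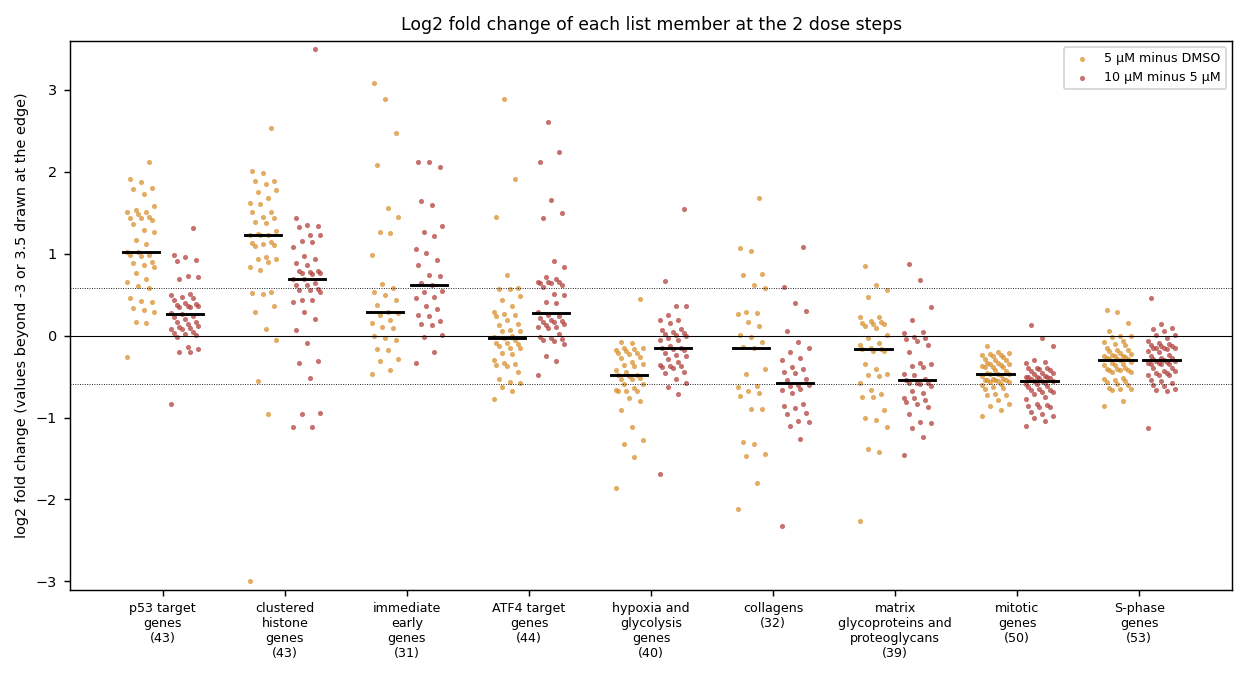
Log2 fold change of each tested member of 9 lists at 5 µM minus DMSO (orange) and 10 µM minus 5 µM (red), with black bars at the medians and dotted lines at 1.5-fold. The medians of the p53 targets drop from 1.02 to 0.26 between the steps, those of the ATF4 targets go from -0.02 to 0.27, and those of the mitotic genes are -0.47 and -0.56.

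Hypoxia and glycolysis genes were called mainly at the first step. Of 40 tested, 14 had fallen at 5 µM, of which 3 fell again, 5 had levelled and 6 were neither, with medians of -0.48 and -0.15. Over all genes tested, 2.72% fell at 5 µM and 2.59% between the doses. At an unadjusted p under 0.05 in edgeR's test, 17 members of the list were lower and 5 higher between the doses. CA9, a carbonic anhydrase gene on chromosome 9 from 35673856 to 35681159 whose exons overlap ARHGEF39 on the opposite strand, was at 79.5, 81.5 and 83.5 CPM in DMSO, 34.4, 30.9 and 32.2 CPM at 5 µM and 9.73, 8.77 and 11.7 CPM at 10 µM (log2 fold change -1.69, standard error 0.11, adjusted p = 4.06e-05). NDRG1 and the glycolytic regulator gene PFKFB4 fell by 0.72 and 0.63 on the log2 scale, and CITED2 rose. HILPDA, a lipid droplet gene on chromosome 7 from 128455849 to 128458418, had the largest fall at 5 µM of the levelled genes, at 29.8, 31.7 and 28.6 CPM in DMSO, 10.2, 10.9 and 11.2 CPM at 5 µM and 12.5, 9.29 and 9.19 CPM at 10 µM (-0.06 between the doses, 95% interval -0.34 to 0.22). When 10 µM replicate 1 was left out, 5 genes of the list fell between the doses, and 7 of 15 lower at 5 µM had levelled.

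Over all genes, 109 of the 352 that rose at 5 µM (31.0%) and 102 of the 447 that fell (22.8%) had levelled by this rule, which 7826 genes (47.7%) met in all. The shares were 30.1% of 575 and 26.1% of 666 without 10 µM replicate 1. With all libraries another 169 and 194 were neither called between the doses nor level by this rule. The largest rises at 5 µM among the levelled genes were those of FAM198B, EDA2R, SESN1, SERPINB5, GAS6-AS1, CYFIP2, ACTA2 and CIITA, with log2 fold changes of 1.65 to 1.37 at 5 µM and -0.34 to 0.24 between the doses. CYFIP2, an actin regulator gene, was at 43.3, 39 and 42.1 CPM in DMSO, 118, 108 and 109.9 CPM at 5 µM and 105, 132 and 119 CPM at 10 µM. The largest falls were those of HILPDA, COL1A1, OLFML2A, PLAC8, RAPGEF3, NGFR, DUSP5P1 and TNFRSF11B, from -1.48 to -1.03 at 5 µM and -0.37 to 0.23 between the doses. COL1A1, the main fibrillar collagen gene, was at 10.3, 10.1 and 10.3 CPM in DMSO, 4.69, 3.54 and 4.09 CPM at 5 µM and 3.68, 4.15 and 3.79 CPM at 10 µM. NGFR, a neural crest receptor gene, was at 85.6, 84.9 and 86.2 CPM in DMSO, 33.7, 46 and 44.9 CPM at 5 µM and 51.7, 49.1 and 45.4 CPM at 10 µM, and its libraries at both doses overlapped. TNFRSF11B, the osteoprotegerin gene, kept its interval within 1.5-fold with a change of -0.37 between the doses (adjusted p = 0.0427).

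Reversal was seen in 16 genes, called at 5 µM and called in the other direction from 5 µM to 10 µM. Of these, 7 rose and then fell and 9 fell and then rose. These are 1.99% and 2.01% of the genes called higher and lower at 5 µM. Between the doses 2.59% of all genes tested fell and 1.42% rose, and nothing is read from these shares. Of the 16, 13 kept the second call without 10 µM replicate 1, all except INSIG1, SPP1 and LINC00479. Without that library 34 genes met the rule, these 13 among them. At 10 µM the 16 stood within 1.5-fold of DMSO, between -0.57 and 0.53 on the log2 scale. The rule uses steps that share the 5 µM libraries, and nothing is read from this closeness. In edgeR's test ITGB7 (0.53, adjusted p = 0.0066) and SPP1 (-0.44, adjusted p = 0.033) still differed from DMSO at 10 µM. TXNIP, a thioredoxin-binding protein gene that follows glucose, on chromosome 1 from 145992435 to 145996600, was at 56.7, 57.4 and 57 CPM in DMSO, 30.7, 31.9 and 32.9 CPM at 5 µM and 50.01, 51.5 and 53.8 CPM at 10 µM. The 5 µM libraries of TXNIP lay below all others, and the return was 0.70 on the log2 scale (standard error 0.07, adjusted p = 0.000391). LPAR6, a lysophosphatidic acid receptor gene, followed the same course, at 11.1, 9.94 and 9.46 CPM in DMSO, 5.72, 5.67 and 6.9 CPM at 5 µM and 9.09, 10.6 and 10.9 CPM at 10 µM (0.74 between the doses, adjusted p = 0.0088). INSIG1, which holds back sterol synthesis, went from 13.9, 13.2 and 13.8 to 29.9, 20.1 and 19.7 CPM (0.77, and 0.55 without 10 µM replicate 1, under the limit), while SREBF1 of the same pathway fell again (-0.75, standard error 0.07). ATP6V0A4, a proton pump subunit gene, rose and then fell, at 13.3, 12.4 and 14 CPM in DMSO, 22.6, 22 and 18.9 CPM at 5 µM and 12.5, 13.1 and 13.5 CPM at 10 µM (-0.70, adjusted p = 0.00259). The protocadherin genes PCDHA4 and PCDH7 did so too, PCDHA4 going from 14.1, 12.9 and 12.4 to 7.66, 6.19 and 4.93 CPM and PCDH7 from 13.8, 13.4 and 12.1 to 5.19, 8.31 and 6.7 CPM between the doses. The integrin gene ITGB7, the zinc finger gene ZNF488 and the citrate transporter gene SLC13A5 fell after a rise, by 0.69, 0.80 and 0.93 on the log2 scale. ITGB7 overlaps ZNF740 on the opposite strand, and PCDHA4 shares exons with its gene cluster. LINC00664 rose after a fall, from 0.285, 0.407 and 0.349 to 1.94, 0.904 and 1.12 CPM. The remaining 6 were SPP1, NLRP3, NPTX2, NKILA, N4BP3 and LINC00479, of which N4BP3 had 1, 0 and 0 counts at 5 µM and 12, 12 and 21 at 10 µM, and LINC00479 had 1, 1 and 0 and then 17, 5 and 12.

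Other lists held fewer calls. Of 40 receptor tyrosine kinase genes, EPHA7, FLT1, ERBB3, MST1R and PDGFRA fell, none of them called at 5 µM, and EPHA7 went from 33.1, 35.3 and 30.4 to 7.04, 13.8 and 15.2 CPM (-1.46, standard error 0.23). ERBB3, a receptor of the melanocyte lineage, went from 163, 152 and 169 to 104, 111 and 106 CPM (-0.59, and -0.57 without 10 µM replicate 1, under the limit). Of 44 genes of the Notch, Wnt and Hedgehog pathways, FZD1, LRP5, DKK3, GLI2, GLI3 and WNT5A fell and DKK1, a Wnt antagonist gene, rose from 251, 237 and 231 to 429.5, 362 and 393 CPM (0.72, standard error 0.08). Of 39 interferon-stimulated genes, GBP1, GBP2 and IFI44 fell. In the melanocyte lineage, SNAI2 rose from 0.438, 0.697 and 0.616 to 2.15, 1.6 and 1.39 CPM (1.54, standard error 0.36), and the other members of that list except ERBB3 were not called. Among 20 EMT factors and cadherins SNAI2 was again the member called. KLF2, which marks quiescent endothelium and lymphocytes and also responds to stress, was the member called of 15 KLF factors, at 5.37, 6.16 and 5.52 CPM at 5 µM and 17, 14.3 and 11.8 CPM at 10 µM. XBP1, a factor of the unfolded protein response, and HERPUD1 rose among 28 endoplasmic reticulum genes, and HSPB8 among 27 heat shock genes. SQSTM1, an autophagy receptor gene, and NEU1 rose among 40 lysosome and autophagy genes. The actin and SRF list of 34 genes had FHL2 higher and VCL lower, and the 56 genes of chromatin-modifying enzymes HDAC9 higher and WHSC1 lower. With 1 or 2 calls each, the endoplasmic reticulum, heat shock, lysosome, actin and enzyme lists lie close to the 1.42% and 2.59% of all genes called higher and lower, and nothing is read from them about the lists. The CDK inhibitor gene CDKN1C fell by 1.08 on the log2 scale after a fall at 5 µM. Without 10 µM replicate 1, HERPUD1, HSPB8, NEU1, FHL2, VCL, WHSC1, LRP5 and GLI2 were under the limit.

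Housekeeping lists and some others gave no call. In 12 lists with 409 tested members, namely ribosomal proteins, ribosome biogenesis, splicing factors, the proteasome, oxidative phosphorylation, SWI/SNF subunits, fatty acid synthesis, homologous recombination, metallothioneins, antigen presentation, BET genes and the synthetases above, edgeR's test called 0 genes between the doses, with 64 higher and 37 lower at an unadjusted p under 0.05, DESeq2 called 3 genes lower and limma-voom 2. These DESeq2 and limma-voom calls were all homologous recombination genes. Of the 34 tested in that list, 17 were lower and 0 higher at an unadjusted p under 0.05 in edgeR's test. Its median was -0.26 at 5 µM and -0.32 between the doses, or -0.25 without 10 µM replicate 1. At 10 µM against DMSO 14 of the 34 were called lower, where 10.5% of all genes were. Without 10 µM replicate 1, TAPBPL, an antigen presentation gene, was called lower (-0.59 on the log2 scale). The SWI/SNF subunit with the smallest p was SMARCC2, at 124, 128 and 126 CPM at 5 µM and 86.6, 94.5 and 89.4 CPM at 10 µM (-0.48, standard error 0.06), short of the limit on the fold. Some of their medians moved with 10 µM replicate 1. Against the mean of the DMSO libraries, the median log2 difference of the 77 oxidative phosphorylation genes was 0.16, 0.11 and 0.16 at 5 µM and 0.83, 0.17 and 0.19 at 10 µM, and that of the 85 ribosomal protein genes was -0.02, -0.10 and -0.03 and then 0.56, -0.14 and -0.11. The medians from 5 µM to 10 µM were 0.24 and 0.20 with all libraries and 0.01 and -0.08 without replicate 1. The median transcript length of these lists was 1582 and 1857 bases. For the mitotic genes the same values were -0.45, -0.46 and -0.48 at 5 µM and -1.18, -1.0 and -1.02 at 10 µM, and for the ATF4 targets 0.00, -0.04 and -0.03 and then 0.22, 0.33 and 0.30, with all libraries at 10 µM beyond those at 5 µM.

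**Figure D5:**
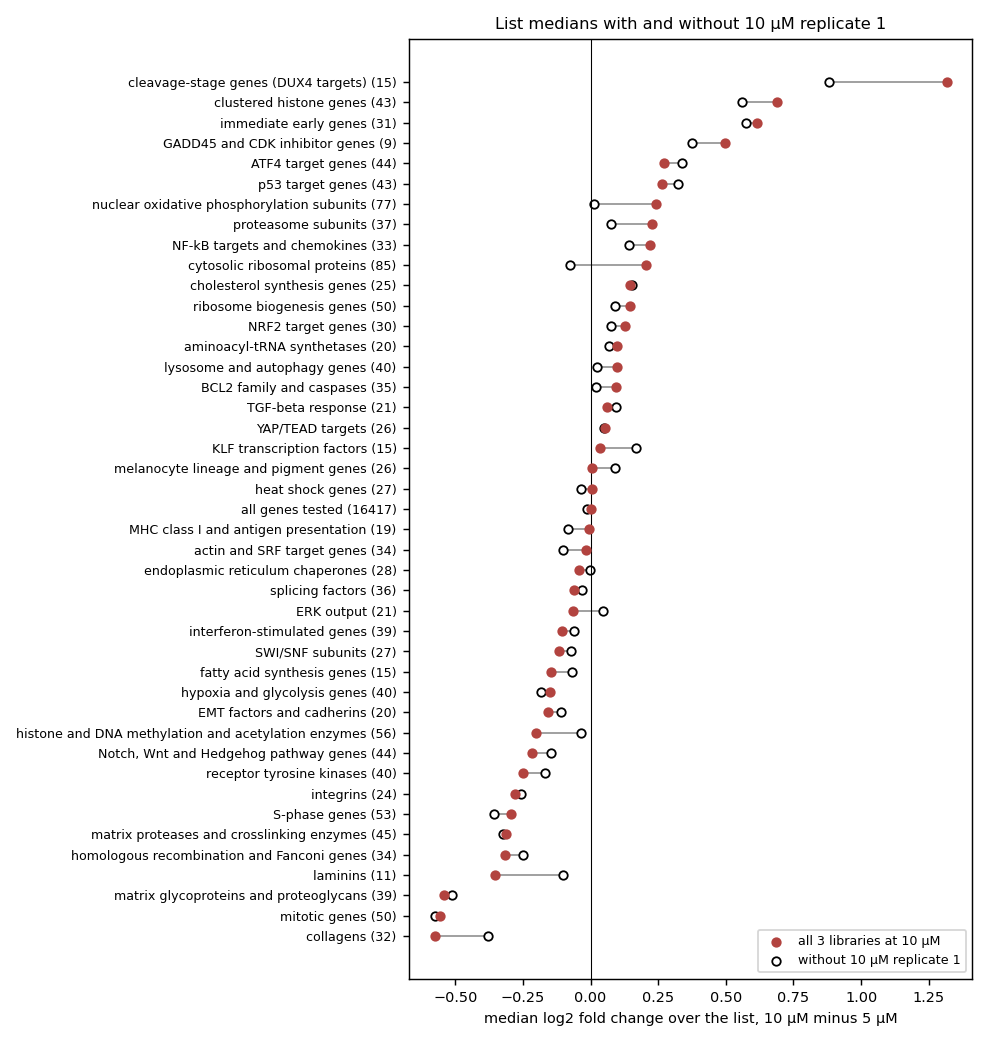
Median log2 fold change from 5 µM to 10 µM over each gene list (number of members tested in brackets) with all libraries (red) and without 10 µM replicate 1 (open circles). The median of the ribosomal proteins goes from 0.20 to -0.08 and that of oxidative phosphorylation from 0.24 to 0.01, while those of the mitotic genes, ATF4 targets and immediate early genes keep their sign. Leaving out replicate 1 also moves the collagens, from -0.57 to -0.38, and the laminins, from -0.35 to -0.10.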

How the data were processed

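RNA of A375 cells was measured in 9 libraries at 24 h, grouped and numbered as in the labels. The authors deposited expected counts per gene symbol, estimated by RSEM 1.2.15 with Bowtie2 2.1.0 on hg38 per the submitters' processing notes, not scaled between libraries. The annotation release and the use of strand in counting were not given in any source used; the sources describe both oligo-dT selection and depletion of ribosomal RNA. The expected counts were rounded and tested with edgeR 4.0.16 in R 4.3.3 (TMM factors, default expression filter, quasi-likelihood F test) in 1 fit of all 3 groups, on 16417 of 26475 symbols, with the limits given above. Standard errors are the log2 fold change over the root of F. P-values measure the spread between these libraries, which may be technical. CPM values use TMM-scaled library sizes, and list differences from DMSO are medians of log2(CPM + 0.5).

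Gene positions, transcript lengths and overlaps came from GENCODE 29 by symbol. Genes were named by rule: the 12 largest rises and falls between the doses with a mean of at least 1 CPM, no overlap and the call kept without 10 µM replicate 1, the 8 largest levelled rises and falls at 5 µM, the 10 turned-back genes with the smallest p, the inhibitor's targets, and in each list the 3 called members with the smallest p, or 1 where none was called. Other called members were named with their values known. Some genes that met the rule are not reported here. The comparison and the 49 gene lists were chosen with earlier results of these data known. The steps were tested on simulated data. Alternatives covered normalization, filters, fold limits, tools (DESeq2 1.42.0, limma 3.58.1), a replicate block and leaving out each library. Same-numbered libraries were not treated as pairs, since their deviations from the group means had correlations of -0.049 to 0.032.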

Additional observations from a re-analysis of the deposited data

How the results depend on the processing

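Of the genes named by rule and called between the doses, none changed its direction under the alternatives run. The direction of the other called genes was not checked. Upper-quartile factors turned the balance of genes higher and lower at 10 µM against DMSO from 1407 and 1730 to 1594 and 1565. Removal of the length and GC trend turned it to 1522 and 1469. The median of the ribosomal protein genes went from 0.20 to -0.08 without 10 µM replicate 1. The counts of genes higher and lower between the doses were 101 and 165 when the 6 libraries of both doses were fitted alone, which leaves fewer libraries to estimate the spread, 471 and 908 with no limit on the fold change, 88 and 119 at 2-fold and 26 and 44 in a test against 1.5-fold itself. DESeq2 called 418 genes higher and 12 clustered histone genes. Other normalizations, filters and limma-voom left both counts within 1.5 times. Leaving out 1 library at a time gave 118 to 320 genes higher and 258 to 572 lower, 4 to 8 p53 target genes, 3 to 11 histone genes, 14 to 25 mitotic genes, 2 to 7 S-phase genes, 3 to 7 integrin genes and 2 to 5 hypoxia genes. The lowest of each was without a 5 µM replicate. With the 6 libraries alone, 4 p53 target genes, 1 histone gene, 10 mitotic genes, 1 S-phase gene, 7 matrix glycoprotein genes and 3 integrin genes were called. Upper-quartile factors left 3 S-phase genes and removal of the length and GC trend 5 collagen genes. Without 10 µM replicate 1 and with that trend removed, an alternative chosen after seeing the data, 11 histone genes were called. The cause of these changes was not tested. Of the 159 list members called between the doses, 38 lost the call without 10 µM replicate 1.

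A fit with the replicate block called 176 genes higher and 380 lower. The numbers mark no shared culture in the labels, and the block changed no list count by more than 1.5 times. The median standard error of a log2 fold change between the doses was 0.154 over all genes tested.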
